A study of Mus musculus with 12 samples.

Results

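The genes described here are 7 chemokine receptors of the macrophage: Ccr1, Ccr2, Ccr3, Ccr7, Ccrl2, Cxcr4 and Cx3cr1. They were chosen by name out of 22243 genes in the expression table, and 17 other chemokine receptors of the table are set beside them. RNA sequencing measured them in bone marrow-derived macrophages (BM-Mɸs) that were grown in medium holding the growth factor M-CSF and then M1-activated, that is, given 100 U/ml interferon-γ for 16 h and afterwards 100 ng/ml LPS, a bacterial cell wall component, for 6 h. There were 12 libraries from 12 C57Bl/6 mice. In 6 of these mice, labelled LysMCre/ErbB4-floxxed (KO) and here called ErbB4myeKO, Cre recombinase is driven from the lysozyme M gene of myeloid cells and acts on loxP-flanked ErbB4, the gene of a growth factor receptor of the EGF receptor family. The other 6 were their ErbB4-floxxed (WT) littermates, here called ErbB4FF, which carry the flanked gene as well. Each of 6 litters gave 1 mouse of each genotype, and no unactivated BM-Mɸs were analysed here, so that levels describe activated cells only. The study's methods state an age for purchased C57Bl/6J mice and do not tie it to these littermates.

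Chemokine receptors are proteins that thread the cell membrane several times and couple to inhibitory G proteins. When a chemokine binds, the released G protein subunits turn on phosphoinositide 3-kinase, phospholipase C and Rac, and the cell crawls up the gradient; receptor kinases and arrestins then switch the receptor off and take it into the cell. Ccr2, the receptor of Ccl2, Ccl7 and Ccl12, brings monocytes out of the bone marrow. Ccr1 binds Ccl3, Ccl5 and related inflammatory chemokines, Ccr3 is the eotaxin receptor best known from eosinophils, and Ccr7 binds Ccl19 and Ccl21 and leads dendritic cells and lymphocytes to lymph nodes. Cxcr4 binds Cxcl12 and holds cells in the marrow, while Cx3cr1, the receptor of fractalkine (Cx3cl1), marks resident macrophages and patrolling monocytes. Ccrl2 is an atypical member that binds chemerin (Rarres2) and does not couple to G proteins in the usual way.

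Values are in TPM, which correct for transcript length and library size. Only transcripts that the APPRIS annotation calls principal are summed per gene. A gene whose RNA is mainly of other transcripts is understated, so that comparisons between genes hold for the principal transcripts only. Genotypes were compared by limma on log2(TPM + 0.5) with litter as a block, so that a log2 value below 0 is lower in the library labelled ErbB4myeKO than in that of its littermate, and folds of genes at a few TPM are understated. Beside it stands an exact permutation test, two-sided, in which the genotype labels of littermates were exchanged in all 64 ways, with 0.0312 as the smallest p it can give.

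The libraries held the macrophage marker Adgre1, which encodes F4/80, at 662 to 1060 TPM and Cd68 at 314 to 571 TPM, and all 8 macrophage markers passed the filter of a mean of at least 1 TPM. Fcgr1, an Fc receptor gene, was the only macrophage marker with an unadjusted limma p under 0.05 (mean log2 ratio -0.86, adjusted p = 0.603), where 8.21% of all genes tested had one. The genes of the targeting did not follow the labels throughout. Lyz2, the gene that carries the Cre insertion, was lower in the library labelled ErbB4myeKO in litters 1 to 5, by log2 ratios of -1.20 to -0.81, and was higher in litter 6, by 1.43. Its neighbour Lyz1 went the other way, with log2 ratios of 1.41 to 2.18 in litters 1 to 5 and of -0.94 in litter 6. Erbb4 itself was between 0.280 and 0.852 TPM in all libraries and was higher in the library labelled ErbB4myeKO in 4 of 6 litters, at a level where the transcript sum does not show whether the flanked exon was lost. Genotype is therefore named below as the label of the library, and the genotype effects on the receptors tested are given without litter 6 too. Whether the labels of litter 6 are right was not tested, and each count of 6 of 6 litters below includes it. The summed TPM of 4 Y-linked genes was 36.1 to 49.2 in both littermates of litters 1 to 4 and 0.202 to 0.406 in both littermates of litters 5 and 6, so litters differed in sex as read from these genes, and sex and litter cannot be told apart.

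The genes lie on 3 chromosomes (GRCm38, GENCODE M21). Ccr1 (chr9:123962124-123968692, minus strand), Ccr3 (chr9:124021972-124031689, plus strand) and Ccr2 (chr9:124101950-124113557, plus strand) sit side by side on chromosome 9. Ccrl2 (chr9:111054486-111057519) and Cx3cr1 (chr9:119901616-120069879) lie further away on the minus strand of the same chromosome. Cxcr4 is on chromosome 1 (chr1:128588199-128592293, minus strand) and Ccr7 on chromosome 11 (chr11:99144196-99155077, minus strand).

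Ccr1 and Ccr3, neighbours in this cluster, are alike in sequence, which bears on how reads of 75 bp were shared out. Their coding sequences (1068 and 1080 bases) were 67.7% identical over the alignment. Ccr1 was closer to another neighbour, Ccr1l1, at 75.9%, but the longest run of that pair had only 31 bases and Ccr1l1 averaged 0.298 TPM. The longest unbroken identical run of Ccr1 and Ccr3 had 47 bases and covers coding bases 835 to 881 of Ccr1 (chr9:123963611-123963657, minus strand) and 847 to 893 of Ccr3 (chr9:124029476-124029522, plus strand), exonic in both. It is shown 5′ to 3′ on the coding strand because it is shorter than a read, so that every read over it reaches bases that differ.
Ccr1 and Ccr3: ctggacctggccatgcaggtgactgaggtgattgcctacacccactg

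Of the 31-base words of the Ccr1 transcript, 0.642% also stood in transcripts of other genes. For Ccr3 the share was 0.524%, for the main transcript of Ccr2 it was 5.80%, and for Ccr7 and Cxcr4 it was 0%. How the assignment of shared reads moved the level of Ccr2 was not tested.

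The receptors differed widely in level. Ccrl2 had a mean of 630 TPM and was number 170 of 22243 genes, Ccr7 had 47.6 TPM and was number 1589, and Ccr3, Ccr2 and Ccr1 followed close together at 7.35, 7.01 and 6.55 TPM. Cxcr4 had 2.06 TPM, and Cx3cr1, at 0.755 TPM, was under the filter. Ccrl2 was the highest of the receptors in 12 of 12 libraries and held 86.2 to 93.0% of their summed TPM. Ccr7 was second in 11 of 12, the exception being the ErbB4FF library of litter 6, where Ccr3 was above it.

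Neighbours in this order were compared over the mean log2 values of 6 litters by exact two-sided permutation, with p adjusted by Benjamini-Hochberg over 6 pairs. Ccrl2 exceeded Ccr7 by 3.80 ± 0.51 on the log2 scale (SD, n = 6 litters) and Ccr7 exceeded Ccr3 by 2.61 ± 1.25, each in 6 of 6 litters with an exact p of 0.0312, the smallest possible, and an adjusted p of 0.0938. Ccr3 and Ccr2 differed by 0.07 ± 1.09 (exact p = 0.969, adjusted p = 0.969), with Ccr3 the higher in only 2 of 6 litters. Ccr2 and Ccr1 differed by 0.05 ± 0.94 (exact p = 0.844, adjusted p = 0.969). Ccr1 was 1.66 ± 1.31 above Cxcr4 in 5 of 6 litters (exact p = 0.0625, adjusted p = 0.125), and Cxcr4 was 1.02 ± 1.74 above Cx3cr1 in 4 of 6 (exact p = 0.281, adjusted p = 0.422). None of the pairs passed an adjusted p of 0.05, and the order of Ccr1, Ccr2 and Ccr3 among themselves lay well inside the spread between litters.

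**Figure D1:**
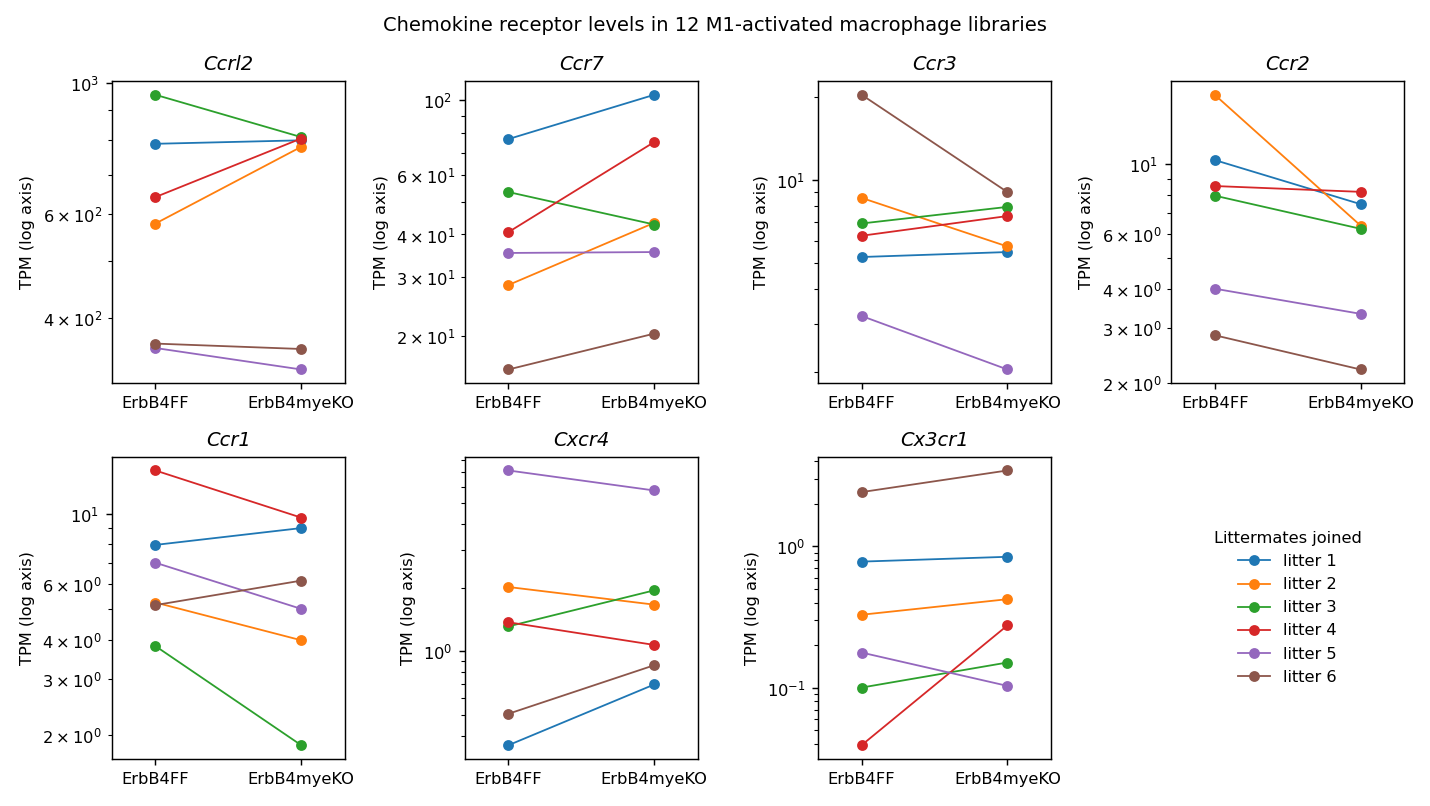
TPM of each receptor on a log axis in the 12 libraries, with a line joining the littermates of each of 6 litters and each panel on its own scale. Lines run side by side at different heights for most receptors, the ErbB4FF and ErbB4myeKO libraries overlap in each panel, and the Ccr2 lines all slope down.

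With all 6 litters in the limma fit, Ccr2 had the smallest p of the receptors between littermates; Ccr1 had a slightly smaller one without litter 6, and Ccr7 a smaller one without litter 3. In the libraries labelled ErbB4FF it was measured at 10.3, 16.7, 7.94, 8.52, 3.998 and 2.84 TPM in litters 1 to 6, and in those labelled ErbB4myeKO at 7.46, 6.37, 6.22, 8.17, 3.32 and 2.20 TPM. It was lower in the library labelled ErbB4myeKO in 6 of 6 litters, although the groups overlap, and litters 5 and 6 were low in both genotypes. The mean log2 ratio was -0.45 (limma SE 0.17, 95% confidence interval -0.84 to -0.06, n = 6 litters), with an unadjusted p of 0.0305, an exact permutation p of 0.0312 and, by limma with Benjamini-Hochberg adjustment over 8780 genes, an adjusted p of 0.603. Ccr2 was the only one of the 6 receptors tested with an unadjusted p under 0.05, where 8.21% of all genes tested had one (4.38% lower in ErbB4myeKO), and 2.31% of all genes were lower in 6 of 6 litters. No receptor, and 0% of all genes tested, passed an adjusted p of 0.05 by limma, with 721 genes at an unadjusted p under 0.05. The difference was widest in litter 2, at -1.32, and spanned -0.44 to -0.06 in the other litters. The mean was -0.27 without litter 2, still at an unadjusted p under 0.05 by limma, and -0.48 without litter 6 or -0.45 without litter 1, where it no longer was.

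A single-exon transcript, ENSMUST00000165984 (chr9:124105626-124109140), carried 73.2% of the Ccr2 TPM over all libraries. The table holds 3 further Ccr2 transcripts, ENSMUST00000171719 with 11.6%, ENSMUST00000168841 with 10.6% and ENSMUST00000055918 with 4.57%. All 4 encode the same 1122 coding bases and differ in the exons and ends around them. The single-exon transcript was at 6.30, 12.6, 6.99, 6.52, 3.24 and 2.37 TPM in the libraries labelled ErbB4FF of litters 1 to 6, and at 4.57, 4.59, 4.51, 6.27, 2.51 and 1.11 TPM in those labelled ErbB4myeKO. It too was lower in each litter, with a mean log2 ratio of -0.59 (limma SE 0.18, p = 0.0142, adjusted p = 0.685 over 10085 transcripts; exact permutation p = 0.0312), where 3.60% of the transcripts tested were lower at an unadjusted p under 0.05.

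As a share of the Ccr2 TPM of its library, this transcript held 68.1% ± 10.2 in ErbB4myeKO and 77.6% ± 9.36 in ErbB4FF (SD, n = 6). The difference of -9.42 percentage points did not hold up against the spread between litters (exact permutation p = 0.125, lower in 4 of 6 litters), and it was -4.71 without litter 6. Shares ranged from 50.5% in the ErbB4myeKO library of litter 6 to 88.0% in the ErbB4FF library of litter 3. ENSMUST00000055918 was listed at 0 in 7 of 12 libraries and reached 31.2% in the ErbB4myeKO library of litter 6. The split is uncertain, since 98.6% of the 31-base words of the single-exon transcript also stand in the other Ccr2 transcripts, and the deposited mean normalized count was 93.5 for that transcript, 21.4 for ENSMUST00000168841 and 6.16 for ENSMUST00000171719.

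**Figure D2:**
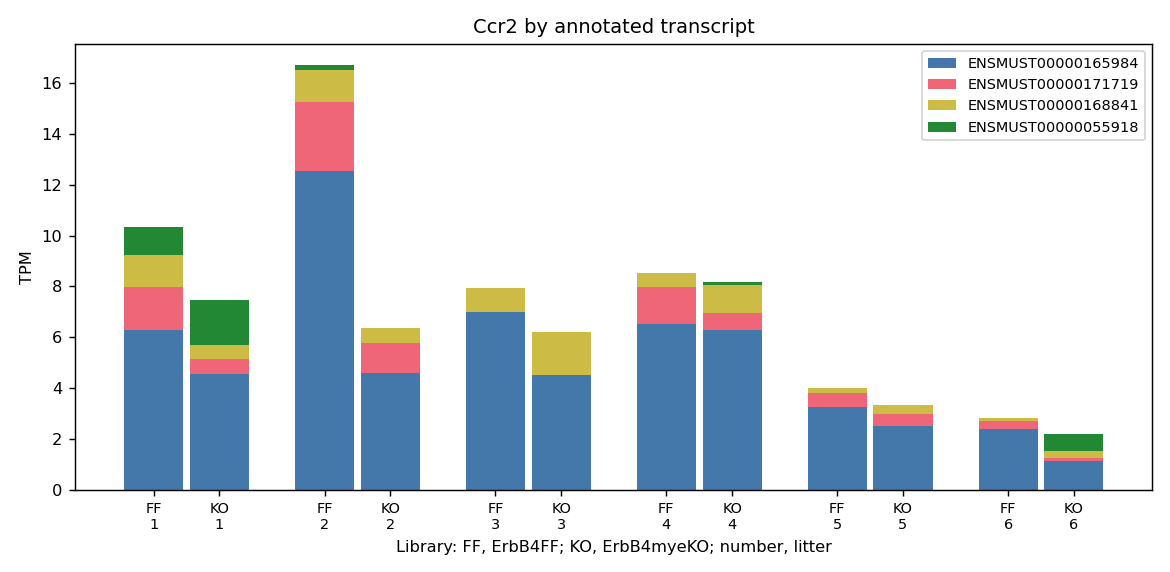
TPM of Ccr2 in each library as a bar starting at 0, coloured by annotated transcript, with littermates side by side (FF, ErbB4FF; KO, ErbB4myeKO). The single-exon transcript makes the largest part of each bar, and the ErbB4FF bar is the taller of each pair, most of all in litter 2.

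Ccr1 was at 7.97, 5.24, 3.82, 13.7, 7.002 and 5.15 TPM in the ErbB4FF libraries of litters 1 to 6 and at 9.01, 3.99, 1.86, 9.72, 5.01 and 6.15 TPM in the ErbB4myeKO libraries. Values were lower in ErbB4myeKO in litters 2 to 5 and higher in litters 1 and 6, and the groups overlap. The mean log2 ratio of -0.29 did not pass the test (limma SE 0.16, p = 0.112, adjusted p = 0.638; exact permutation p = 0.156). It was -0.17 without litter 3 and -0.40 without litter 6, neither of which passed.

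Ccr3 lay at 5.24, 8.59, 6.94, 6.26, 3.20 and 20.4 TPM in ErbB4FF and at 5.46, 5.72, 7.97, 7.38, 2.05 and 9.02 TPM in ErbB4myeKO. The ErbB4FF library of litter 6 stood above the other 11. Littermates differed in either direction, 3 litters each way, with a mean log2 ratio of -0.29 (limma SE 0.20, p = 0.175, adjusted p = 0.665; exact permutation p = 0.250), which was -0.12 without litter 6. Of the eosinophil markers, eosinophil peroxidase (Epx) was at most 0.165 TPM in any library, while Prg2 reached 4.81 TPM and Siglecf 1.18 TPM. The 6 eosinophil markers summed to 0.144 to 3.16 TPM in ErbB4myeKO and 0.119 to 6.78 TPM in ErbB4FF, and none of them reached a mean of 1 TPM. The highest sum was in the ErbB4FF library of litter 5, where Ccr3 was at 3.20 TPM, and their part in the level of Ccr3 was not tested. Markers of mast cells and basophils, which also carry Ccr3, summed to at most 3.99 TPM, with Fcer1a and Ms4a2 listed at 0 in all libraries. A listed 0 does not show that a gene is silent in this table, since Rac1, a GTPase used by nearly all cells, averaged only 0.282 TPM and was itself listed at 0 in 5 of 12 libraries.

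Ccr7, a gene often used to mark M1 activation, was the receptor with the largest mean difference in the other direction. It was at 76.7, 28.3, 53.4, 40.7, 35.3 and 15.9 TPM in ErbB4FF and at 104, 43.3, 42.8, 75.2, 35.5 and 20.3 TPM in ErbB4myeKO. It was higher in the library labelled ErbB4myeKO in 5 of 6 litters, by almost nothing in litter 5, and lower in litter 3, with overlapping groups. The mean log2 ratio of 0.33 did not pass the test (limma SE 0.15, 95% confidence interval -0.03 to 0.68, p = 0.0656, adjusted p = 0.603; exact permutation p = 0.0938). It was 0.21 without litter 4, 0.32 without litter 6 and 0.45 without litter 3, the latter at an unadjusted limma p under 0.05 and with an adjusted p of 0.513. Flt3 and Zbtb46, defining markers of conventional dendritic cells, were at most 0.0789 and 0.394 TPM, and the 5 markers of these cells summed to 0.203 to 4.39 TPM in ErbB4myeKO and 0.214 to 4.04 TPM in ErbB4FF. The 7 lymphocyte markers summed to at most 0.734 TPM.

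Ccrl2 was at 790, 578, 956, 641, 355 and 361 TPM in ErbB4FF and at 800, 780, 811, 806, 327 and 354 TPM in ErbB4myeKO. The lowest library of litters 1 to 4 was at 578 TPM and the highest of litters 5 and 6 at 361 TPM, whichever the genotype. The mean log2 ratio was 0.07 (limma SE 0.10, 95% confidence interval -0.16 to 0.29, p = 0.523, adjusted p = 0.845; exact permutation p = 0.594), and it was -0.0080 without litter 2 and 0.08 without litter 6. Its main transcript, ENSMUST00000199839, held 86.9% of the Ccrl2 TPM and ENSMUST00000111888, with a nearer start and the same coding sequence, held the remaining 13.1%. The share of the main transcript ranged from 84.6 to 92.7% and did not differ beyond the spread between litters (difference -0.29 percentage points, exact permutation p = 0.562).

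Cxcr4 was low and varied most between litters among the receptors that were tested. It lay at 0.360, 2.01, 1.31, 1.37, 7.15 and 0.507 TPM in ErbB4FF and at 0.697, 1.66, 1.94, 1.07, 5.75 and 0.860 TPM in ErbB4myeKO. Both libraries of litter 5 stood above the other 10. The mean log2 ratio of 0.10 did not pass the test (limma SE 0.19, 95% confidence interval -0.34 to 0.54, p = 0.623, adjusted p = 0.884; exact permutation p = 0.594), with 3 litters each way. It was 0.03 without litter 6 and ranged from 0.02 (without litter 1) to 0.17 (without litter 5) when each litter was left out. With 0.1 added to the TPM in place of 0.5 it was 0.18, and with 1 added it was 0.05.

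Cx3cr1 was at 0.779, 0.328, 0.10, 0.0392, 0.177 and 2.41 TPM in ErbB4FF and at 0.842, 0.422, 0.151, 0.275, 0.103 and 3.43 TPM in ErbB4myeKO. Both libraries of litter 6 stood above the rest. Its main transcript had a deposited mean normalized count of only 3.67. In the fit with no filter on low values the mean log2 ratio was 0.19 (limma SE 0.12, p = 0.164, adjusted p = 0.765; exact permutation p = 0.156).

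**Figure D3:**
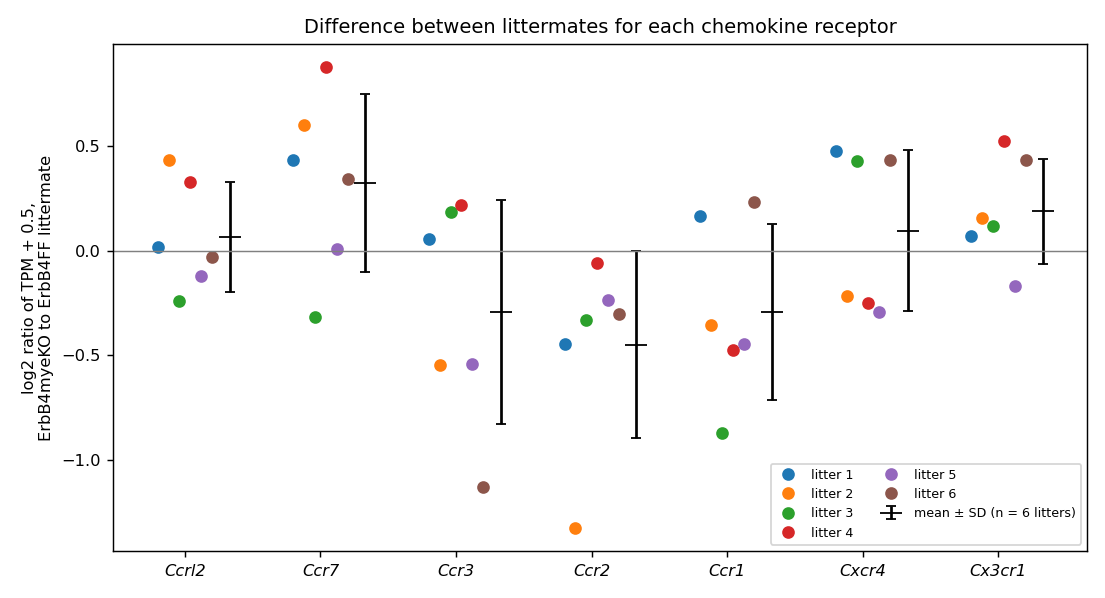
Log2 ratio of TPM + 0.5 between littermates for each receptor, with 1 coloured point per litter and the mean ± SD over 6 litters in black. All 6 Ccr2 points lie below 0, 5 of 6 Ccr7 points lie above it, and the points of the other receptors fall on both sides.

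Over the 6 receptors tested, 3 mean log2 ratios were above 0 and 3 below, where 49.8 and 50.2% of all genes tested were, and their median was -0.11 against -0.00068 for all genes tested. The groups overlap for each of the 7 receptors, where 0.0456% of all genes tested had groups that did not.

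The receptors differed between litters. All 6 receptors tested differed between litters at an adjusted p under 0.05 in the litter term of the same limma fit, in which none passed for genotype, where 44.9% of all genes tested did. Adjusted p values for this term were 0.00221 for Ccrl2, 0.00406 for Cxcr4, 0.00453 for Ccr7, 0.00804 for Ccr2, 0.0105 for Ccr1 and 0.0171 for Ccr3. The highest litter mean exceeded the lowest 2.59-fold for Ccrl2, 4.12-fold for Ccr1, 4.58-fold for Ccr2, 4.98-fold for Ccr7, 5.598-fold for Ccr3, 12.2-fold for Cxcr4 and 23.3-fold for Cx3cr1.

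The receptors did not share the same high litters. Ccr2 was at 6.22 to 16.7 TPM in litters 1 to 4 and at 2.20 to 3.998 TPM in litters 5 and 6, with no overlap, as for Ccrl2, and this split runs with the Y-linked genes. Ccr7 peaked in litter 1, with a litter mean of 90.3 TPM, and was lowest in litter 6, at 18.1 TPM. Ccr3 was highest in litter 6 (14.7 TPM) and lowest in litter 5 (2.62 TPM), while Cxcr4 was highest in litter 5 (6.45 TPM). Ccr1 was highest in litter 4 (11.7 TPM) and lowest in litter 3 (2.84 TPM). The labels give each litter its own batch letter, so that litter, batch and any difference in culture cannot be told apart, and in bulk samples neither can fewer cells of a type and less RNA per cell. The monocyte markers, among them Ly6c2, summed to 4.51 to 104 TPM in ErbB4myeKO and 11 to 76.2 TPM in ErbB4FF, and the neutrophil markers to 39.6 to 371 and 39.9 to 185 TPM. Camp, higher in ErbB4myeKO by 0.45 on the log2 scale (limma adjusted p = 0.603), was the only 1 of the 7 tested of these markers with an unadjusted p under 0.05, where 8.21% of all genes tested had one. Their part in the litter differences was not tested.

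Across the 12 libraries, the log2 values of Ccr7 and Ccrl2 had a Pearson correlation of 0.74, those of Ccr2 and Ccrl2 0.73, and those of Ccr3 and Cxcr4 -0.68. These libraries share litters, so the values describe the set and carry no test. Among all genes tested, the closest to Ccrl2 were Tnfaip2 (r = 0.98), Gmeb2 (0.97) and Sec24b (0.97). The closest to Ccr7 were Ccl22 (0.93), a chemokine of activated macrophages and dendritic cells, the costimulatory ligand Cd80 (0.92) and Casp2 (0.90). For Ccr2 they were Napsa (0.94), Serinc5 (0.93) and Cd93 (0.92), and for Ccr3 Kctd12 (0.95), Sh2b3 (0.92) and Slc28a2 (0.91). Ccr1 was nearest to Zfp772, Asap3 and Npc2 (0.89, 0.89 and 0.88), and Cxcr4 to Atp6v1e1 (0.93), Ccl5 (0.93) and Naa40 (0.92).

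RefSeq start sites (GRCm38.p6) gave 8 windows from 250 bases before to 50 after a start for 6 of the 7 receptors. Windows for the receptors with a motif match and for the most abundant receptor are shown. The motifs searched on both strands were the NF-kB letters (GGG, any 2 bases, TTTCC), found in 1.63% of 32851 windows of all genes, the interferon response letters (GAAA, any 2 bases, GAAA; 3.44%) and GAGGAA, the core of PU.1 sites (28.3%). In Ccr3 (chr9:124021721-124022020, plus strand), GAGGAA stood at -181 to -176 and overlapped an NF-kB match on the other strand at -179 to -170. Ccr1 (chr9:123968643-123968942, minus strand) held GAGGAA at -129 to -124. None of the 3 motifs was in the windows of Ccr2, Cxcr4 or Cx3cr1, nor in the 3 windows of Ccrl2. For Ccrl2 the window of ENSMUST00000199839 (chr9:111057469-111057768) and that of ENSMUST00000111888 (chr9:111057221-111057520), both on the minus strand, are given. The Ccr2 window starts from ENSMUST00000055918 and so does not cover the start of the single-exon transcript. Capitals mark the motif matches, and a match is a description of the letters only.
Ccr3: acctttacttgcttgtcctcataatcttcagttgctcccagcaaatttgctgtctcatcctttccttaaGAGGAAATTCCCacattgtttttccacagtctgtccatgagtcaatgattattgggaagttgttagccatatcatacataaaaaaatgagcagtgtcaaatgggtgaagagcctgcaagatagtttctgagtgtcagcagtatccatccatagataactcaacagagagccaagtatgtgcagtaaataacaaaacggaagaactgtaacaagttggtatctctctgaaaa
Ccr1: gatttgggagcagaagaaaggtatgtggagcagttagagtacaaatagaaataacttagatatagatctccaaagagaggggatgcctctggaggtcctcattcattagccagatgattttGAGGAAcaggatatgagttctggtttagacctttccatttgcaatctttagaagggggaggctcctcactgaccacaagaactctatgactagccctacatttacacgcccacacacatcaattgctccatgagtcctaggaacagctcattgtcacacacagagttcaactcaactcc
Ccrl2, ENSMUST00000199839: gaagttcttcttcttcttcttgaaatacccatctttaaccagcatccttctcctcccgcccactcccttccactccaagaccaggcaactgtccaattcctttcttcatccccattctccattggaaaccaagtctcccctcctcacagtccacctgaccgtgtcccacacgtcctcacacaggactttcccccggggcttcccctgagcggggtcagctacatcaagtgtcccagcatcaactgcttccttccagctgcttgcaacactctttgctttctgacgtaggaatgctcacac
Ccrl2, ENSMUST00000111888: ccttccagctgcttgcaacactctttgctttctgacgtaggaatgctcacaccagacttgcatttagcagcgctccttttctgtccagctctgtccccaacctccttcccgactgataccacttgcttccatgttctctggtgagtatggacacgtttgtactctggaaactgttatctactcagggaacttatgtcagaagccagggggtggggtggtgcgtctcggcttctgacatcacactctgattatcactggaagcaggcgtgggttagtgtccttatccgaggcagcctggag

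RNA of ligands of these receptors was measured in the same cultures at very different levels. Of the 12 ligands tested, 2 had an unadjusted p under 0.05, both lower in ErbB4myeKO (4.38% of all genes tested were). Ccl5, a ligand of Ccr1 and Ccr3, was at 11618 to 25396 TPM and Ccl3, a ligand of Ccr1, at 1421 to 8349 TPM. Of the eotaxins that bind Ccr3, Ccl11 was at most 0.184 TPM and Ccl24 averaged 1.90 TPM. The Ccr7 ligand Ccl19 was at most 0.499 TPM. Ccl21a, also a Ccr7 ligand, was listed at 0 in all 12 libraries. Cxcl12 averaged 1.60 TPM and chemerin (Rarres2) 1.95 TPM.

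Ccl12, a ligand of Ccr2, was lower in the library labelled ErbB4myeKO in 6 of 6 litters. It was at 58.4 to 466 TPM in ErbB4myeKO and 106 to 640 TPM in ErbB4FF, with overlapping groups and a mean log2 ratio of -0.68 (limma SE 0.23, adjusted p = 0.603; exact permutation p = 0.0312), which was -0.41 without litter 2. Ccl8 was lower in 5 of 6 litters, with a mean log2 ratio of -0.76 (limma SE 0.31, adjusted p = 0.603; exact permutation p = 0.0938). Ccl2, the main Ccr2 ligand, had a mean log2 ratio of -0.03 ± 0.29 (SD, exact permutation p = 0.844) at 97.8 to 1035 TPM, and leaving out each litter gave -0.09 to 0.05. In the other direction, the smallest limma p were those of Cx3cl1, with a mean log2 ratio of 0.42 (exact permutation p = 0.0938), and Ccl3, with 0.48 (exact permutation p = 0.406). Without litter 2 these were 0.23 and 0.22, and Ccl3 was at 0.30 without litter 4. The tested ligands split 6 above and 6 below 0, none passed after adjustment, and all 12 differed between litters at an adjusted p under 0.05 by limma, as did 44.9% of all genes tested.

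Of the 17 other chemokine receptors, 3 passed the filter, 14 were under a mean of 1 TPM and 4 of those were listed at 0 in all 12 libraries. Xcr1, the receptor of Xcl1 and a neighbour of the Ccr1 cluster, had a mean log2 ratio of 0.63 (limma SE 0.23, adjusted p = 0.603; exact permutation p = 0.0938) and was higher in 5 of 6 litters. It was the only 1 of the 3 with an unadjusted limma p under 0.05, where 3.83% of all genes tested were higher with such a p. The mean log2 ratio of Cxcr3 was 0.20 with an SD of 0.91 over 6 litters, well inside the spread between litters, and leaving out each litter gave -0.025 (without litter 2) to 0.46 (without litter 3). The chemerin receptor Cmklr1 had a mean log2 ratio of -0.04 ± 0.47 (SD, exact permutation p = 0.781), and leaving out each litter gave -0.17 (without litter 5) to 0.12 (without litter 2). Flt3, given above, and Clec9a, at 0 to 4.39 TPM, are among the markers of the dendritic cells that carry Xcr1.

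The genes of receptor signalling and switching off had 21 tested members, 7 above and 14 below 0, where 50.2% of all genes tested were below. Of these members 4 had an unadjusted p under 0.05, all lower in ErbB4myeKO as were 4.38% of all genes tested, and none an adjusted p under 0.05. Gnai2, the main inhibitory G protein subunit of leukocytes, was at 261 to 399 TPM in ErbB4myeKO and 310 to 456 TPM in ErbB4FF, and was lower in 6 of 6 litters (mean log2 ratio -0.17, limma SE 0.06, adjusted p = 0.603; exact permutation p = 0.0312). Rac2, a GTPase of the leukocyte cytoskeleton, had a mean log2 ratio of -0.21 (exact permutation p = 0.0625), Pik3r5, a regulatory subunit of phosphoinositide 3-kinase γ, -0.23 (exact p = 0.0938), and the arrestin Arrb2 -0.36 (exact p = 0.0938). Above 0, the smallest limma p were those of Rgs16, a brake on G protein signalling, with 0.45 (exact permutation p = 0.219), and the receptor kinase Grk3, with 0.10 (exact p = 0.281). Rgs16 was at 0.29 without litter 2, and Grk3 ranged from 0.05 (without litter 3) to 0.16 (without litter 6).

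**Figure D4:**
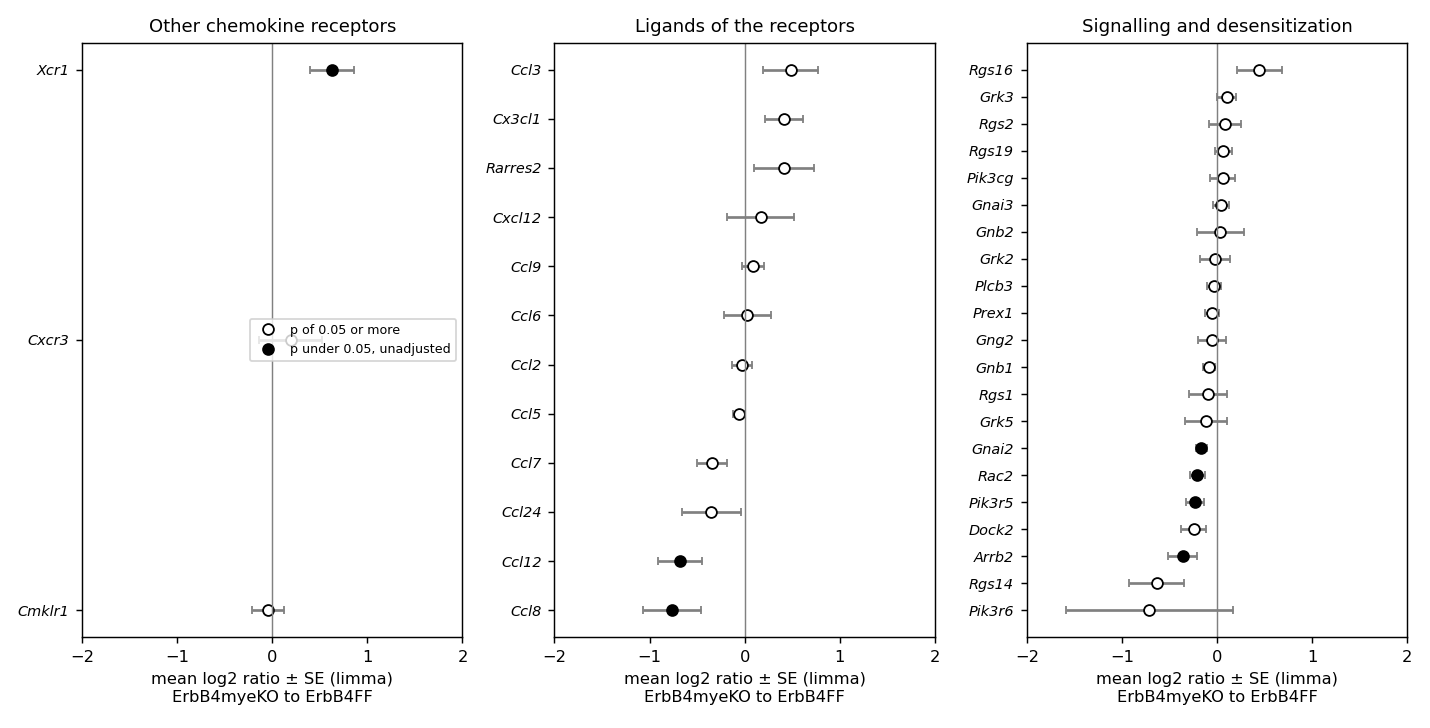
Mean log2 ratio ± SE (limma, 6 litters) of the tested other chemokine receptors, ligands and signalling genes, with filled points at an unadjusted p under 0.05. The filled points are Xcr1 above 0, and Ccl12, Ccl8, Gnai2, Rac2, Pik3r5 and Arrb2 below 0.

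Of 13 genes listed as receptor neighbours on chromosome 9, 8 were tested, with 5 mean log2 ratios above 0 and 3 below. Ccr1, Ccr2 and Ccr3 are among the 8. So is Ccrl2, which lies outside their cluster and counts among those above 0. Ccr2 was the lower and Xcr1 the higher gene with an unadjusted p under 0.05, against 4.38% lower and 3.83% higher among all genes tested. Next to them were Lztfl1, at 0.37 (exact permutation p = 0.188; 0.24 without litter 2), and Ccr1. All 8 differed between litters at an adjusted p under 0.05, as did 44.9% of all genes tested.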

How the data were processed

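Poly(A) RNA of 12 M1-activated BM-Mɸ cultures was sequenced as single-end reads of 75 bp from stranded libraries. The submitters' processing notes name CASAVA, kallisto, sleuth and mm10; versions and the transcriptome release are not given in the sources used here. The authors deposited TPM of the principal transcripts of the APPRIS annotation, and sleuth's mean natural log of normalized estimated counts, from which the normalized counts above were taken by exponentiation. The authors' deposited p-values, q-values and fold changes of genotype were not used.

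The table has 29213 lines for 28808 transcripts. The 405 repeated lines were dropped and TPM summed per gene. The principal transcripts held 59.0 to 74.7% of the TPM of a library, and 10214 to 12985 genes were above 0. The files hold no read depth of single libraries, of which the study's methods give only an approximate figure, so that precision rests on the spread between litters, and each p covers 1 culture per mouse.

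Genes averaging 1 TPM or more, 8780 in all, entered a limma model (version 3.58.1, R 4.3.3; lmFit and eBayes, trend on) of log2(TPM + 0.5) on genotype and litter, which was tested on simulated data first. Litter comes from the replicate number and batch letter of the labels. Littermates correlated at 0.273 to 0.774 after the mean of each gene within its genotype was removed. Libraries of different litters were not compared in this way, so these values do not test the pairing by number. Permutations and correlations used numpy 2.4.6 and pandas 2.3.3 in Python 3.11.15, and figures matplotlib 3.10.9. Alternatives were the pseudocount, the filter, the block, rescaling, the trend, the highest transcript alone, a covariate from Y-linked genes, and leaving out each litter.

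Members and gene lists were chosen with earlier results of these data known. The lists covered other chemokine receptors, ligands, signalling and desensitization, chromosome 9 neighbours, and markers of macrophages, monocytes, neutrophils, eosinophils, conventional dendritic cells, lymphocytes, and mast cells and basophils. All 7 receptors are named; of the lists, the genes with the smallest p in each direction are named, others may be, and for each receptor over the filter the 3 genes most correlated with it. The test of litter, the shared run and the motifs were chosen after values had been seen. Some items of these lists are not reported here.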

Additional observations from a re-analysis of the deposited data

Results flagged for a closer look

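Of 31 groups of 6 values examined for a lowest or highest value far from the rest, 5 were picked out. The cutoff picks about 1 in 20 groups of independent, normally distributed values. Transcript shares are bounded at 0 and tied to each other within a gene, so the count is not set against chance. The log2 ratio of Ccr2 between littermates was -1.32 in litter 2, apart from the other litters. Among the libraries labelled ErbB4myeKO, Ccr3 was lowest in litter 5, at 2.05 TPM. The other 3 concern the split of Ccr2 between transcripts. The share in ENSMUST00000171719 was 0% in the ErbB4FF library of litter 3, and it was 0% in the ErbB4myeKO littermate too. That in ENSMUST00000168841 was 27.5% in the ErbB4myeKO library of litter 3, and that in ENSMUST00000055918 was 10.7% in the ErbB4FF library of litter 1.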

How the results depend on the processing

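Of 89 recomputed genotype effects on single receptors, 88 kept their direction and their side of an adjusted p of 0.05. Part of this count was fixed beforehand, since changing the block, the filter or the trend cannot move a mean log2 ratio. The side of an adjusted p of 0.05 could hardly change either, as at most 1 gene passed in any alternative. The effect on Ccrl2, -0.0080 to 0.13 when each litter was left out, turned without litter 2, where the cause was not tested. Without the litter block (unpaired fit), 75 genes and 0 receptors had an unadjusted p under 0.05, in place of 721 and 1, and the block changed no call after adjustment. Leaving out each litter gave 410 to 860 genes and 0 to 2 receptors at an unadjusted p under 0.05: 0 receptors without litter 1 or 6, and 2, Ccr2 and Ccr7, without litter 3. It gave 0 to 1 genes with an adjusted p under 0.05, the 1 without litter 3. Adjusted p values of Ccr2 over all alternatives were 0.506 to 1.000, and those of Ccr7 0.506 to 1.000. The order of Ccr2 and Ccr1 turned with the highest transcript alone (-0.37), where the other Ccr2 transcripts are left out, and its difference ranged from -0.19 to 0.26 when each litter was left out, below 0 without litter 2 (-0.16) or 3 (-0.19). That of Ccr3 and Ccr2 ranged from -0.37 (without litter 6) to 0.21. With 6 litters no pair of receptors could pass after adjustment unless 4 or more of the 6 pairs reached the smallest exact p. For Cx3cr1 leaving out litters was not run. Mean normalized counts of 15.2 for Cxcr4 and 3.67 for the main transcript of Cx3cr1 limit what their values show.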
